A study of Mus musculus with 8 samples.

Results

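The 39 collagen genes described here encode the chains of the collagens, the main structural proteins of the extracellular matrix. They were taken by name from the 26008 genes of a colon RNA-seq table. Of 44 genes with a collagen chain symbol, the 39 members averaged 10 normalized counts or more in the 8 libraries. They comprised 10 of 11 fibrillar collagen genes, all 6 type IV genes of the basement membrane and 23 of 27 other collagen genes. Col2a1, Col9a1, Col10a1, Col19a1 and Col26a1 were below that level and were left out.

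Colonic biopsies came from male C57BL/6JRj mice that were lethally irradiated when 7 weeks old and received bone marrow of male donors aged 9 to 11 weeks. In the 4 Penk-/- chimeras the donors lacked preproenkephalin (strain B6.129-Penk-rstm1Pig/J), and in the 4 Penk+/+ chimeras they were wild-type. Tissue was taken 18 weeks after engraftment, and each mouse gave 1 library. The comparison asks whether deletion of the enkephalin gene in hematopoietic cells goes with other mRNA levels in the colon. Fibroblasts, muscle, vessels and epithelium of both groups were those of irradiated wild-type recipients, so the cells that make most collagen carried an intact Penk gene. The targeted gene therefore cannot check the labels in whole colon. Normalized counts of Penk, the preproenkephalin gene, were 453, 512, 616 and 531 in the Penk-/- chimeras and 473, 496, 560 and 636 in the Penk+/+ chimeras.

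Collagen chains assemble in threes into a triple helix. Fibrillar collagens, mainly types I, III and V, form the fibrils of the submucosa and lamina propria and are made chiefly by fibroblasts and smooth muscle cells. Type IV collagens form the network of basement membranes under epithelium and around vessels and muscle, and the other types bind to fibrils, make beaded filaments, anchor epithelium or span the cell membrane.

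A pair of libraries stood apart. Pbsn, which encodes a secreted protein of the prostate, had 105658 normalized counts in Penk-/- replicate 3 and 111024 in Penk+/+ replicate 4. It had 7638, 4803, 13425 and 2398 counts in Penk-/- replicates 2 and 4 and Penk+/+ replicates 1 and 2, and was listed at 0 in the remaining 2 libraries. The 6 markers of male accessory glands, of which Pbsn was the most abundant, summed to 213921 and 222006 normalized counts in the libraries rich in Pbsn and to between 103 and 28019 in the others. Fold changes of the named collagens and the medians of classes and lists are therefore also given without both.

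Collagen mRNA made up between 0.149% and 0.315% of all normalized counts in a library. No collagen passed limma's test of Penk-/- against Penk+/+ chimeras after Benjamini-Hochberg adjustment, nor did any of the 19127 genes tested (0%). The smallest adjusted p of all genes was 0.132. At an unadjusted p under 0.05, limma called 3 of 39 collagens (7.69%), against 9.63% of all genes tested. edgeR and DESeq2 on the recovered reads also called 0 collagens after adjustment and called the same 3 genes, Col8a1, Col9a2 and Col20a1, at an unadjusted p under 0.05 (10% and 10.2% of all genes). Adjusted calls over all genes numbered 0 with edgeR (0%) and 205 with DESeq2 (1.25% of the 16456 genes to which it gave an adjusted p). DESeq2 gave none for Col4a6 and Col6a6. In no collagen were the 4 values of one genotype all above the 4 of the other, against 5.63% of all genes (2.89% higher and 2.74% lower in Penk-/- chimeras). The estimated log2 fold change, Penk-/- minus Penk+/+, was above 0 for 31 collagens and below 0 for 8, whereas 51.1% of all genes were above 0. Without both libraries rich in Pbsn the split was 23 above and 16 below (59.0% above 0, against 51.2% of all genes). The median was 0.14 over the collagens and 0.01 over all genes, and 0.06 over the collagens without both libraries.

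**Figure D1:**
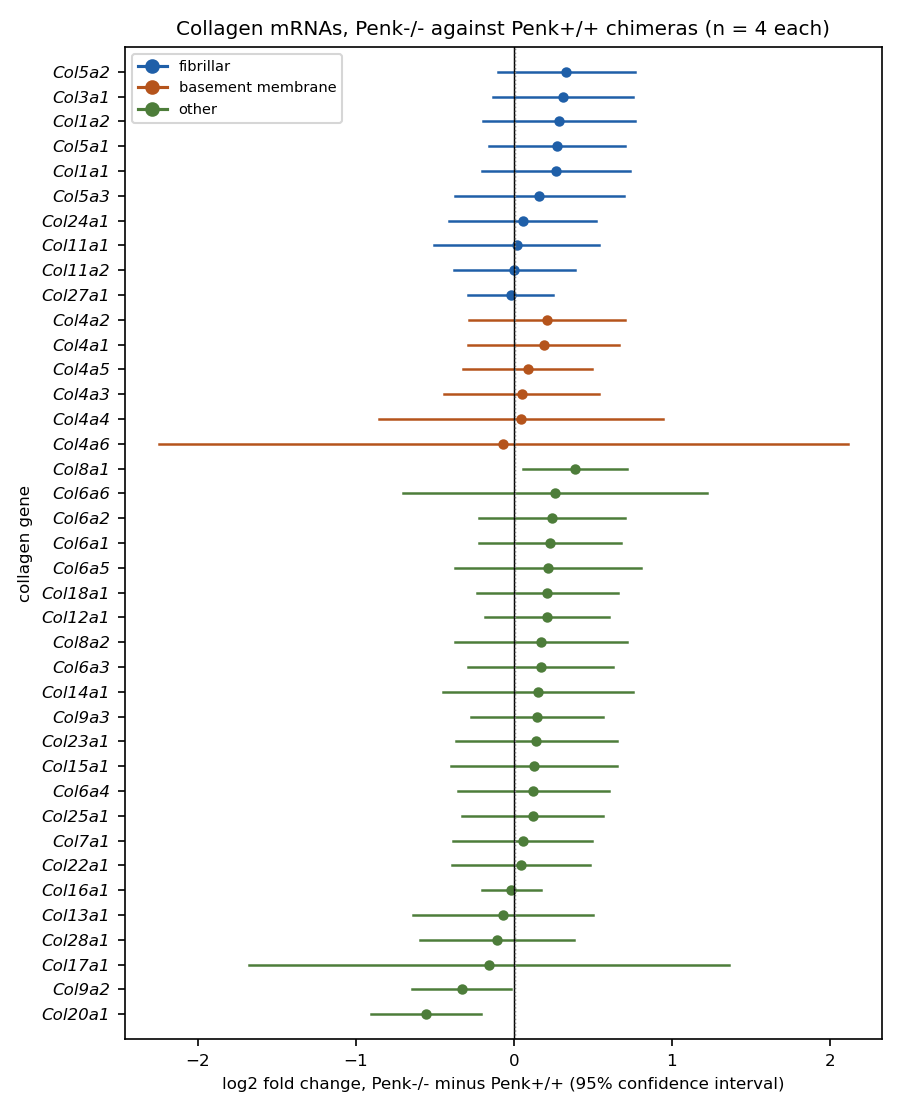
Log2 fold change of each of the 39 collagen mRNAs (x axis, Penk-/- minus Penk+/+, n = 4 libraries each) with its 95% confidence interval from limma, ordered within each class. Intervals of all collagens but Col8a1, Col9a2 and Col20a1 reach across 0, and that of Col4a6 is the widest.

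Among fibrillar collagens, 9 of 10 estimates were above 0 and 1 below, with a median of 0.21 on the log2 scale. Without both libraries rich in Pbsn, 5 were above 0 and 5 below, with a median of 0.06. None had an unadjusted p under 0.05. Per kb of its canonical transcript, Col3a1 had the highest level of all collagens (4456 normalized counts per kb, mean of 8 libraries). Within the class Col1a2 had 1431 and Col1a1 had 745, and the levels went down to 10.9 for Col24a1. Per kb of all exons together, Col1a1 was above Col1a2, at 673 against 606.

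**Figure D2:**
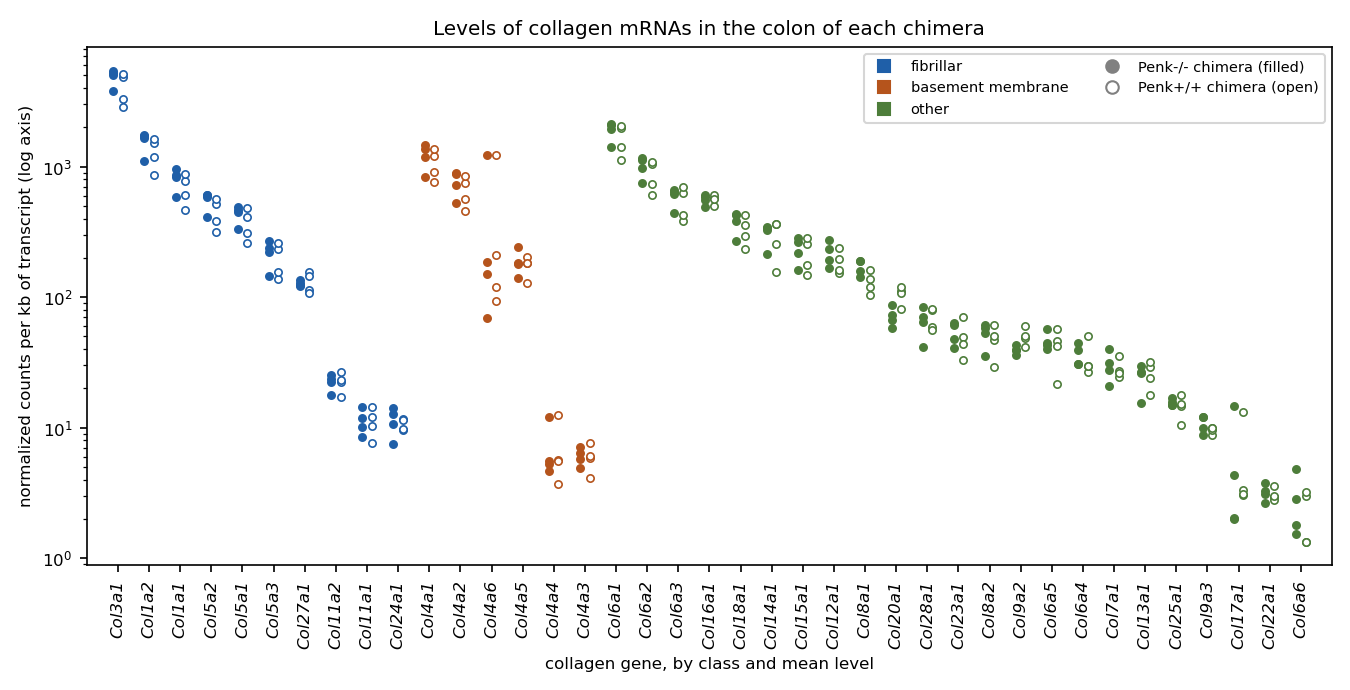
Normalized counts per kb of canonical transcript (y axis, log scale) of the 39 collagen genes in each of 8 chimeras, with filled points for Penk-/- and open points for Penk+/+. Col3a1 is the most abundant and Col6a6 the least (2.48 per kb), and filled and open points overlap for every gene.

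Col3a1 (chr1:45350698-45395840, plus strand, GRCm39) encodes the type III chain of extensible tissues. It had 21236, 30290, 28215 and 29076 normalized counts in Penk-/- replicates 1 to 4, and 15830, 26899, 28556 and 18258 in Penk+/+ replicates 1 to 4. The groups overlapped: Penk+/+ replicates 1 and 4 and Penk-/- replicate 1 were low, and the other 5 libraries lay close together. The log2 fold change was 0.31 (SE 0.20, adjusted p = 0.654 with limma, n = 4 each), and 0.21 without both libraries rich in Pbsn. It was 0.16 without Penk+/+ replicate 1. Without Penk+/+ replicate 3 it was 0.44, with limma's unadjusted p under 0.05, as for 9.1% of all genes in that setting.

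Type I collagen contains chains of Col1a1 (chr11:94827050-94843868, plus strand) and Col1a2 (chr6:4504814-4541555, plus strand). Col1a1 had 3465, 5664, 5078 and 4978 normalized counts in the Penk-/- chimeras and 2763, 4565, 5250 and 3593 in the Penk+/+ chimeras. Col1a2 had 5920, 9354, 9277 and 8958 in the former and 4587, 8071, 8776 and 6388 in the latter. The same 3 libraries were low for both genes, 2 of them Penk+/+, and the genotypes overlapped. The log2 fold change was 0.26 for Col1a1 (SE 0.21, adjusted p = 0.727 with limma) and 0.29 for Col1a2 (SE 0.21, adjusted p = 0.711 with limma), and 0.19 and 0.20 without both libraries rich in Pbsn. Leaving out 1 library gave 0.096 and 0.10 without Penk+/+ replicate 1, and 0.41 and 0.45 without Penk-/- replicate 1. The ratio of Col1a2 to Col1a1 counts stayed between 1.65 and 1.83 in the 8 libraries. Across libraries the log2 levels of these chains had a Pearson r of 0.989 (exact permutation p = 0.00017, adjusted over 10 pairs 0.00029, n = 8) and a Spearman rho of 0.929 (exact permutation p = 0.0022, adjusted 0.0037). Without the 2 libraries farthest from the median, r was 0.968.

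Their promoters are on different chromosomes and are shown because the transcripts moved together. Each window spans 250 bases before the canonical start site and 30 from it on, read from GRCm39 on the gene's own strand. Capitals mark the CCAAT box (ATTGG on the other strand), the GC box with the letters GGGCGG (read as CCGCCC on the other strand) and the TATA box with the letters TATAAA (read as TTTATA on the other strand). No motif letters overlap in these windows. The first is chr11:94826800-94827079 and the second chr6:4505243-4505522, both on the plus strand.
Col1a1: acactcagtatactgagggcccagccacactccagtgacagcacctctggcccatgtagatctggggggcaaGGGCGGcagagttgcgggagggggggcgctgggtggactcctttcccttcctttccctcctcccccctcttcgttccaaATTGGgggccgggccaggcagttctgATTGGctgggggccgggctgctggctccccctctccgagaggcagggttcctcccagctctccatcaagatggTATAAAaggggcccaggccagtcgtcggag
Col1a2: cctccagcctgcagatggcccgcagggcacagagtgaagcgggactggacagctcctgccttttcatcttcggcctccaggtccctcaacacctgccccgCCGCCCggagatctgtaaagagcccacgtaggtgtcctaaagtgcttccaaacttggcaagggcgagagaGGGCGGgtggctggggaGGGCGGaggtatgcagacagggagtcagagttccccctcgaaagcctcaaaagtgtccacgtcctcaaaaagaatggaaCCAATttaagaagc
The Col1a1 window holds CCAAT 2 times, GGGCGG 1 time and TATAAA 1 time, at the annotated start itself, and the Col1a2 window holds CCAAT 1 time and GGGCGG 3 times. CCAAT was found in 16 of the 39 collagen windows (41.0%) and 38.8% of 21770 windows of the same length, GGGCGG in 21 (53.8%) and 40.7%, and TATAAA in 6 (15.4%) and 12.7%. These are matches of letters only.

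Col5a2, a type V chain that joins type I fibrils, had 3107, 4592, 4395 and 4612 normalized counts in the Penk-/- chimeras and 2398, 3882, 4268 and 2888 in the Penk+/+ chimeras. Penk-/- replicate 1 and Penk+/+ replicates 1 and 4 were again lowest. Its log2 fold change of 0.33 (SE 0.19, adjusted p = 0.635 with limma) was the highest of the fibrillar class, and was 0.24 without both libraries rich in Pbsn. It was 0.18 without Penk+/+ replicate 1. Limma's unadjusted p was under 0.05 without Penk-/- replicate 1 (0.47, 11.6% of all genes) or Penk+/+ replicate 3 (0.46, 9.1% of all genes). Col3a1 and Col5a2, which lie side by side on chromosome 1 in opposite orientation, had an r of 0.990 across libraries (exact permutation p = 9.9e-05, adjusted 0.00025, n = 8). The rho was 0.952 (exact permutation p = 0.0011, adjusted 0.0023), and r was 0.980 without the 2 farthest libraries. The remaining fibrillar genes had log2 fold changes from -0.02 (Col27a1) to 0.27 (Col5a1).

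Of the type IV genes, 5 of 6 estimates were above 0, with a median log2 fold change of 0.07. It was 0.06 without both libraries rich in Pbsn, with 4 above 0. None had an unadjusted p under 0.05. Col4a1 and Col4a2 encode the chains found in nearly every basement membrane. Col4a1 (chr8:11248423-11362826, minus strand) had 5481, 9606, 9035 and 7779 normalized counts in the Penk-/- chimeras and 5050, 8007, 8999 and 6036 in the Penk+/+ chimeras. Col4a2 (chr8:11362471-11499287, plus strand) had 3550, 6018, 5948 and 4853 in the former and 3070, 5061, 5743 and 3841 in the latter. The 3 libraries that were low for type I collagen were low here too, and the genotypes overlapped. The log2 fold changes were 0.19 (SE 0.21) and 0.21 (SE 0.22), with limma's adjusted p at 0.827 and 0.802. They were 0.057 and 0.072 without both libraries rich in Pbsn, 0.042 and 0.050 without Penk+/+ replicate 1, and 0.36 and 0.37 without Penk-/- replicate 1. The ratio of Col4a1 to Col4a2 counts was between 1.52 and 1.64 in every library. Their r was 0.996 (exact permutation p = 2.5e-05, adjusted 0.00012, n = 8) and their rho 1 (exact permutation p = 5.0e-05, adjusted 0.00025), with an r of 0.994 without the 2 farthest libraries. The pair starts head to head, with annotated 5' ends that overlap. The kit marks strand, but whether the counting used it was not given in the sources used here.

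Col4a5 (chrX:140258354-140472231, plus strand) and Col4a6 (chrX:139948399-140257072, minus strand) also lie head to head. Col4a5 had 920, 1196, 1596 and 1181 normalized counts in the Penk-/- chimeras and 845, 1197, 1344 and 1198 in the Penk+/+ chimeras. Col4a6 had 461, 1232, 8163 and 1007 in the former and 1396, 792, 619 and 8203 in the latter. For Col4a6 the highest library of each genotype was the one rich in Pbsn, and it was far above the other 3. The ratio of Col4a6 to Col4a5 counts was 5.11 and 6.85 in these libraries and between 0.461 and 1.65 in the other 6. The log2 fold change of Col4a6 was -0.07 with an SE of 0.97, the largest SE among the named collagens (adjusted p = 0.992 with limma), and -0.09 without both libraries. In the remaining 6 libraries Col4a5 and Col4a6 had an r of -0.127 (exact permutation p = 0.796, adjusted 0.796) and a rho of -0.371 (exact permutation p = 0.497, adjusted 0.552). The r was -0.797 without the 2 farthest libraries. In these 6 libraries Col4a6 also rose in the order of Pbsn. It had 461 and 619 normalized counts where Pbsn was listed at 0. Where Pbsn had 2398, 4803, 7638 and 13425 counts, Col4a6 had 792, 1007, 1232 and 1396. The part of gland tissue in the relation of this pair was not tested.

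The start sites of these genes are 1281 bases apart. The windows are shown because, unlike the type I chains, these neighbours did not move together. Col4a6 counts followed the order of Pbsn, and a role of the promoters was not tested. They are chrX:140258104-140258383 on the plus strand and chrX:140257043-140257322 on the minus strand, marked as before.
Col4a5: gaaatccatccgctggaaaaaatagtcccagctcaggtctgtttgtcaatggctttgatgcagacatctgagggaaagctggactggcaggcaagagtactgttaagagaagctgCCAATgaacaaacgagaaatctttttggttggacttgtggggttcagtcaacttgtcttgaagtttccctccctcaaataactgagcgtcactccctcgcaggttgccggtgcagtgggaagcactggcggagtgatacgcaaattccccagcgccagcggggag
Col4a6: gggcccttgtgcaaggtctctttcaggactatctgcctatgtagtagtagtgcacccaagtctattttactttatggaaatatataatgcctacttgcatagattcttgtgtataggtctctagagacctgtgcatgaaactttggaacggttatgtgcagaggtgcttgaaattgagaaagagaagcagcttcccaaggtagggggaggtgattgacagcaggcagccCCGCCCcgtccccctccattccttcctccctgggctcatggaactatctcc
The Col4a5 window holds CCAAT 1 time and the Col4a6 window GGGCGG 1 time.

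Col4a3 and Col4a4 pair with Col4a5 in a restricted network and were scarce, at 5.98 and 6.87 normalized counts per kb. Col4a4 had 48.5, 57.2, 125 and 54.1 normalized counts in the Penk-/- chimeras and 58.5, 38.0, 57.2 and 129 in the Penk+/+ chimeras. As for Col4a6, the libraries rich in Pbsn were highest in each genotype. In the other 6 libraries Col4a3 and Col4a4 had an r of 0.711 (exact permutation p = 0.111, adjusted 0.123) and a rho of 0.257 (exact permutation p = 0.658, adjusted 0.658). The r became -0.864 without the 2 farthest, so the relation rests on those.

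**Figure D3:**
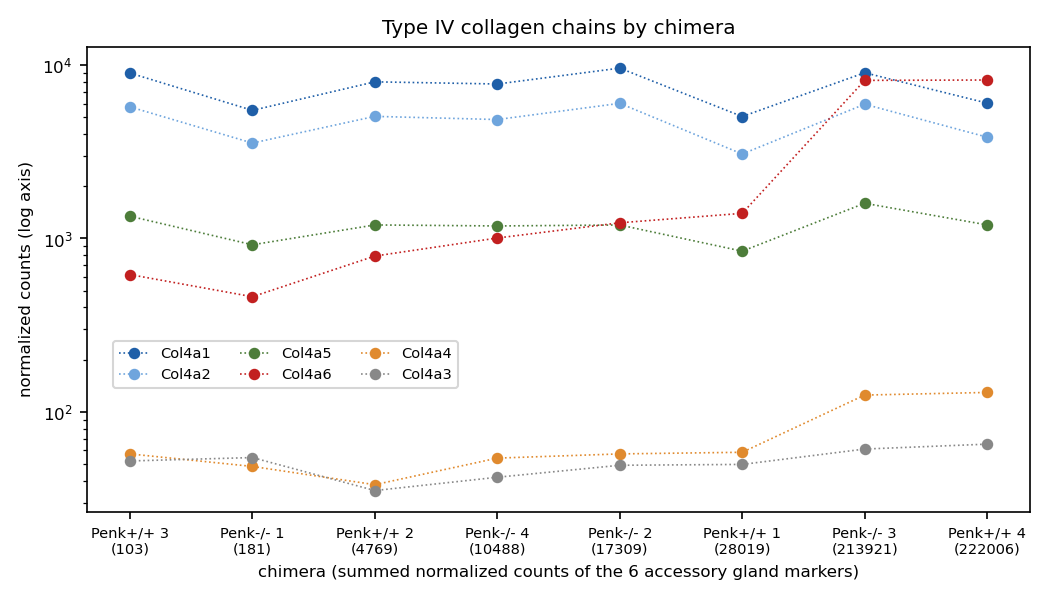
Normalized counts (y axis, log scale) of the 6 type IV collagen genes in each chimera, ordered on the x axis by the summed counts of 6 accessory gland markers, given in parentheses. Col4a6 reaches 8163 and 8203 and Col4a4 125 and 129 in the libraries with the highest sums, while Col4a1 and Col4a2 do not follow that order.

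Among the other collagens, 17 of 23 estimates were above 0, with a median log2 fold change of 0.14. Without both libraries rich in Pbsn, 14 were above 0, with a median of 0.03. The 3 collagens with an unadjusted p under 0.05 belonged to this class (13.0% of its 23 genes, against 9.63% of all genes), with 1 estimate above 0 and 2 below.

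Col20a1, a fibril-associated collagen (chr2:180628316-180660156, plus strand), had 299, 327, 394 and 263 normalized counts in the Penk-/- chimeras and 365, 505, 479 and 540 in the Penk+/+ chimeras. Only Penk-/- replicate 3 and Penk+/+ replicate 1 overlapped. The log2 fold change was -0.56 (SE 0.16, exact permutation p = 0.0571, adjusted p = 0.353 with limma), and -0.59 without both libraries rich in Pbsn. The lowest adjusted p of the tools run was 0.0574, with DESeq2. A long non-coding gene on the same strand, 9230112E08Rik (416 normalized counts), overlaps Col20a1, so this count is uncertain.

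Col8a1 is a short-chain collagen of vessels and mesenchyme. Its normalized counts were 730, 966, 817 and 976 in the Penk-/- chimeras and 529, 709, 827 and 617 in the Penk+/+ chimeras. Penk+/+ replicate 3 lay above 2 of the Penk-/- libraries. Its log2 fold change was 0.39 (SE 0.15, exact permutation p = 0.0857, adjusted p = 0.453 with limma), and 0.38 without both libraries rich in Pbsn, where it was no longer called. The call was also lost without Penk-/- replicate 2 or 4 or Penk+/+ replicate 1 or 4. The log2 fold change was 0.34, 0.33, 0.28 and 0.35 in these settings, in that order.

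Col9a2, a chain of a collagen that decorates cartilage fibrils, had 126.2, 106.5, 114.8 and 114.9 normalized counts in the Penk-/- chimeras and 175.5, 141.7, 148.2 and 120.9 in the Penk+/+ chimeras. Penk+/+ replicate 4 was below Penk-/- replicate 1. The estimate was -0.33 on the log2 scale (SE 0.14, exact permutation p = 0.0571, adjusted p = 0.498 with limma), and -0.42 without both libraries rich in Pbsn. It was no longer called with quantile normalization, with either covariate for tissue composition, or without Penk-/- replicate 2, 3 or 4 or Penk+/+ replicate 1, 2 or 3. The log2 fold change was -0.32 with quantile normalization, -0.26 with the fibroblast score as a covariate, -0.30 with the difference between smooth muscle and epithelium scores, and between -0.24 (without Penk+/+ replicate 1) and -0.34 (without Penk+/+ replicate 2) without 1 of those libraries.

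Type VI collagen forms beaded filaments near cells, and its genes Col6a1, Col6a2 and Col6a3 were the most abundant of the class, at 1761, 939 and 563 normalized counts per kb. Col6a1 had 5760, 8643, 8566 and 7970 normalized counts in the Penk-/- chimeras and 4638, 8050, 8370 and 5778 in the Penk+/+ chimeras. The order of libraries was that of Col4a1. The log2 fold changes of Col6a1, Col6a2 and Col6a3 were 0.23, 0.24 and 0.17 (SE 0.20, 0.21 and 0.20), with limma's adjusted p from 0.752 to 0.839. Without both libraries rich in Pbsn they were 0.11, 0.11 and 0.025. They were 0.064, 0.078 and 0.028 without Penk+/+ replicate 1, and 0.36, 0.37 and 0.30 without Penk-/- replicate 1. Col6a1 had an r of 0.994 with Col6a2 and of 0.980 with Col6a3 (exact permutation p = 5.0e-05 and 0.00082, adjusted 0.00017 and 0.0010, n = 8). The rho was 0.976 and 0.905 (exact permutation p = 0.0004 and 0.0046, adjusted 0.0013 and 0.0057), and r was 0.984 and 0.976 without the 2 farthest libraries.

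Col16a1, a fibril-associated collagen, varied least. Its normalized counts were 2792, 3442, 3306 and 3159 in the Penk-/- chimeras and 2858, 3282, 3465 and 3219 in the Penk+/+ chimeras, and its highest library was 1.24 times the lowest. It had a log2 fold change of -0.01 (SE 0.08, adjusted p = 0.974 with limma, 95% interval -0.20 to 0.17), and of -0.033 without both libraries rich in Pbsn. Col17a1, the transmembrane collagen of hemidesmosomes in stratified epithelium, had 11.1, 11.4, 82.1 and 24.3 normalized counts in the Penk-/- chimeras and 18.7, 17.1, 17.4 and 73.7 in the Penk+/+ chimeras. As for Col4a6, it was highest in the libraries rich in Pbsn, and its log2 fold change was -0.16 (SE 0.68, adjusted p = 0.965 with limma) with them and -0.26 without both. These also held the highest counts of Krt5 and Trp63, basal epithelial genes of the gland list, at 200 and 173 for Krt5 and 89.4 and 86.6 for Trp63. In 6 collagens (Col4a3, Col4a4, Col4a6, Col6a6, Col7a1 and Col17a1) both libraries rich in Pbsn were above the other 6, with 61.1 and 65.2 normalized counts for Col4a3, 44.3 and 30.0 for Col6a6, and 369 and 328 for Col7a1. Col20a1 was highest in them within each genotype. The part of gland tissue in the levels of these 7 was not tested. Col6a6 overlaps Pik3r4 (1576 normalized counts) on the opposite strand, so its count is uncertain if the counting ignored strand.

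The collagens differed more between mice than genes in general. Their median SD within a genotype was 0.35 on the log2 scale, against 0.20 over all genes tested, and the median ratio of the highest to the lowest library was 1.91. Penk-/- replicate 1 and Penk+/+ replicates 1 and 4 were the 3 lowest libraries for 20 of 39 collagens (51.3%), a pattern picked after the values were seen. These were 8 of 10 fibrillar, 2 of 6 type IV and 10 of 23 other collagens, against 8.56% of all genes tested. Penk+/+ replicate 1 was the lowest library of 23 collagens. Genes of different collagen types also followed each other, within the fibrillar class and across classes. The r of Col1a1 was 0.971 with Col3a1, also fibrillar, and 0.976 with the type IV gene Col4a1, and that of Col4a1 with Col6a1 was 0.975 (exact permutation p = 0.00064, 0.00015 and 2.5e-05, adjusted 0.00092, 0.00029 and 0.00012, n = 8). The rho was 0.905, 0.952 and 1 (exact permutation p = 0.0046, 0.0011 and 5.0e-05, adjusted 0.0057, 0.0023 and 0.00025), and r without the 2 farthest libraries was 0.961, 0.963 and 0.959.

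**Figure D4:**
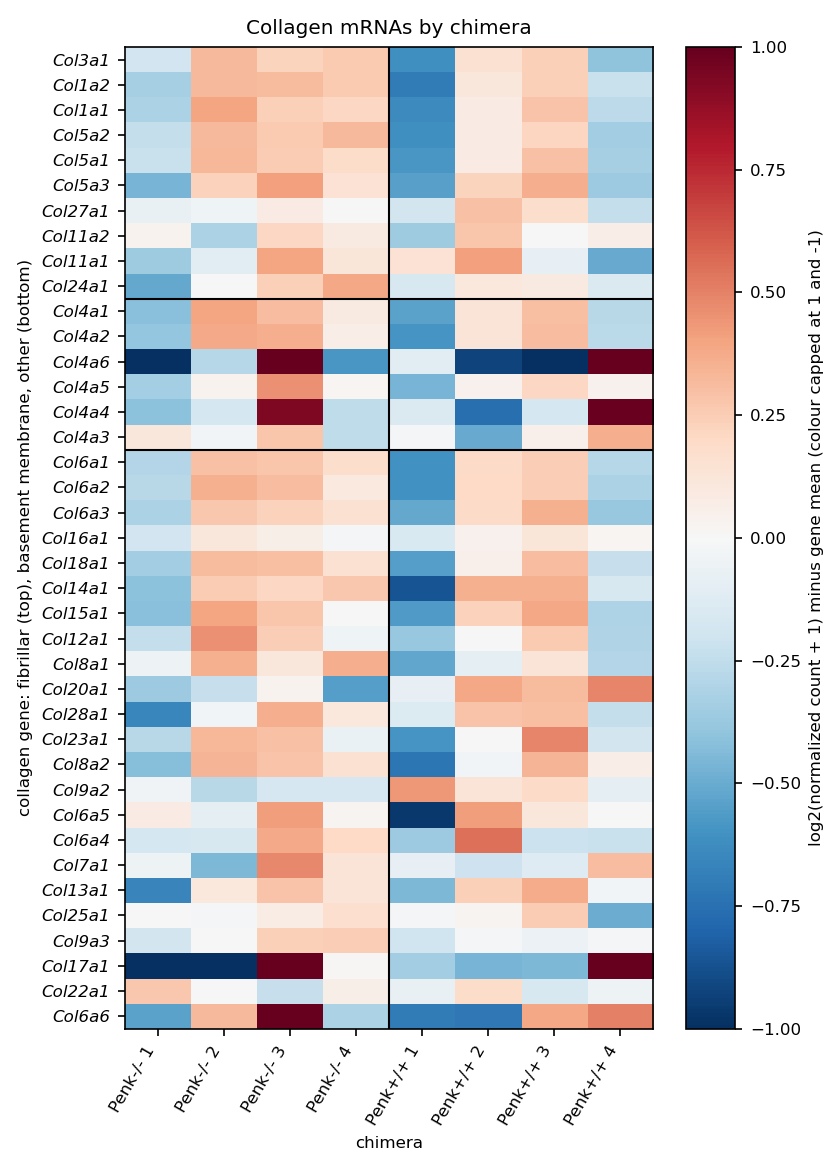
Log2(normalized count + 1) of each collagen gene (rows, by class) in each chimera (columns), minus the mean of the gene over 8 libraries, as colour. Penk-/- replicate 1 and Penk+/+ replicates 1 and 4 are blue for most fibrillar genes, and Col4a6, Col4a4 and Col17a1 are red in Penk-/- replicate 3 and Penk+/+ replicate 4.

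By their medians, markers of fibroblasts, smooth muscle, endothelium, pericytes and leukocytes were low in the same libraries as the fibrillar collagens. Other markers were not. In Penk-/- replicate 1 and Penk+/+ replicates 1 and 4 the median was 0.59, 0.46 and 0.91 for mesothelium. It was 0.06, -0.03 and 0.89 for adipocytes. The 12 fibroblast markers, Gsn being the most abundant, had a median log2 level relative to each gene's mean of -0.31 in Penk-/- replicate 1, -0.50 in Penk+/+ replicate 1 and -0.12 in Penk+/+ replicate 4, and between 0.11 and 0.22 in the other 5 libraries. The fibrillar collagens had -0.28, -0.56 and -0.30 in those libraries and between 0.13 and 0.28 in the others. The 9 leukocyte markers had -0.34, -0.72 and -0.21 in those libraries and between -0.06 and 0.57 in the others. Their summed normalized counts, led by Jchain, did not follow the medians. The sums were 14768, 8101 and 11163 in those libraries, and between 5837 and 12027 in the others. The median of the type IV collagens did not follow that of the fibrillar collagens. It was -0.40, -0.30 and 0.20 in those libraries, and -0.23 in Penk+/+ replicate 2 and -0.12 in Penk-/- replicate 4. Col4a1 and Col4a2 were lowest in those libraries, whereas Col4a3, Col4a4, Col4a5 and Col4a6 departed from the pattern. The 12 epithelium markers had 0.10, 0.22 and 0.07 there, and were lowest in Penk-/- replicate 3 at -0.34. The summed normalized counts of the fibroblast markers ran from 39517 to 58587 and those of epithelium, led by Lgals4, from 609542 to 923643. In whole biopsies fewer cells of a type and less RNA per cell cannot be told apart, and the part of tissue composition in the collagen levels was examined with 2 covariates only. With the fibroblast score as a covariate, the median log2 fold change was -0.02 for fibrillar, -0.05 for type IV and -0.02 for other collagens. When the covariate was the difference between smooth muscle and epithelium scores, it was 0.067, 0.021 and 0.060.

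**Figure D5:**
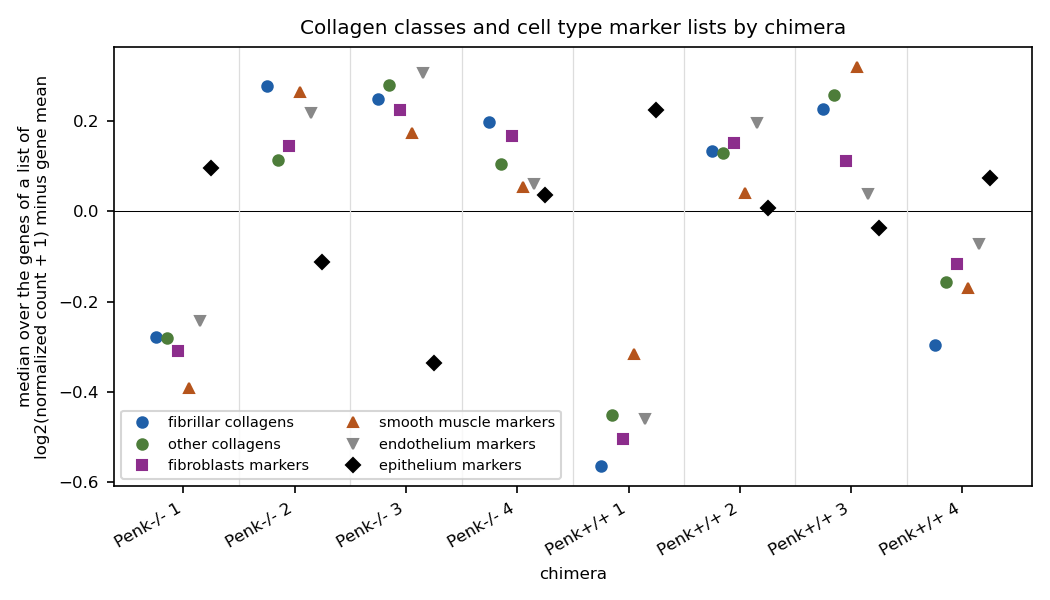
Median over the genes of each list of log2(normalized count + 1) minus the gene mean (y axis), in each chimera (x axis). Fibrillar and other collagens lie with fibroblast, smooth muscle and endothelium markers below 0 in Penk-/- replicate 1 and Penk+/+ replicates 1 and 4, where epithelium markers are above 0.

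None of the marker lists held a gene with an adjusted p under 0.05 by limma or edgeR. At an unadjusted p under 0.05, limma called 0 of 12 fibroblast, 0 of 10 smooth muscle, 0 of 12 epithelium, 0 of 10 endothelium, 0 of 6 pericyte, 0 of 5 mesothelium, 0 of 5 adipocyte, 0 of 9 leukocyte and 0 of 6 accessory gland markers, against 9.63% of all genes. Their median log2 fold changes were 0.19, 0.05, -0.14, 0.15, 0.12, -0.26, 0.83, 0.14 and -0.04 in that order. Without both libraries rich in Pbsn they were 0.10, -0.028, -0.056, 0.066, -0.038, 0.089, 0.73, -0.084 and -0.077. Of 6 enteric glia markers, with a median of -0.06 (-0.21 without both libraries), 1 was called lower, against 5.33% of all genes: Erbb3, at -0.57 (SE 0.16, adjusted p = 0.351 with limma and 0.0441 with DESeq2), with groups that did not overlap, as for 2.74% of all genes in this direction. Erbb3 was the most abundant gene of that list and is also made by epithelium.

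The genes that act on collagen were examined by step. Among 21 genes of collagen folding and modification, limma called 2 with higher levels in Penk-/- chimeras and 0 with lower levels at an unadjusted p under 0.05 (4.3% and 5.33% of all genes), and the median log2 fold change was 0.11. They were Crtap, a partner in prolyl 3-hydroxylation, at 0.29 (SE 0.12, adjusted p = 0.488 with limma), and Tmem38b, an ion channel of the endoplasmic reticulum, at 0.22 (SE 0.10, adjusted p = 0.515 with limma). Plod3, a lysyl hydroxylase, had 0.14 (SE 0.07), and P4hb, a subunit of prolyl 4-hydroxylase and the most abundant of the list at 7924 normalized counts per kb, had -0.02 (SE 0.09). Of 13 genes of procollagen cleavage and crosslinking, 0 were called, with a median of 0.14. Tll2, a procollagen C-proteinase with 4.42 to 15.3 normalized counts, had -0.75 (SE 0.38), the lysyl oxidases Loxl2 and Loxl3 had 0.34 and 0.24 (SE 0.19 each), and Pcolce, the enhancer of C-proteinase, had 0.12 (SE 0.15).

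Among 16 genes of collagen degradation and its inhibitors, 3 were called higher and 0 lower (4.3% and 5.33% of all genes), with a median log2 fold change of 0.10. Timp1, a secreted inhibitor of matrix metalloproteinases, had 64.6, 64.1, 71.2 and 60.8 normalized counts in the Penk-/- chimeras and 26.1, 40.9, 36.8 and 44.6 in the Penk+/+ chimeras. The groups did not overlap, as for 2.89% of all genes in this direction. Its log2 fold change was 0.82 (SE 0.20, exact permutation p = 0.0286, the smallest these groups allow, adjusted p = 0.339 with limma), and 0.87 without both libraries rich in Pbsn. With DESeq2 the adjusted p was 0.0482. Timp4, another inhibitor, had 0.40 (SE 0.16, adjusted p = 0.458 with limma), and Mmp14, a membrane-bound collagenase, 0.21 (SE 0.09, adjusted p = 0.488 with limma). Timp2, the most abundant per kb at 1289, had 0.13 (SE 0.21).

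Of 10 collagen receptors, 1 was called higher, Itga10, an integrin chain, at 0.34 on the log2 scale (SE 0.15, adjusted p = 0.501 with limma), against 4.3% of all genes, and the median was 0.13. The receptor Adgrg1 had 0.13 (SE 0.09), the integrin chain Itga2 had 0.14 (SE 0.09), and Itgb1, the beta chain of the collagen-binding integrins and the most abundant, had 0.12 (SE 0.08). All 13 fibril partners had estimates above 0, with a median of 0.23, and 0 were called, against 51.1% and 9.63% of all genes. The proteoglycans Ogn and Bgn had 0.25 and 0.29 (SE 0.15 and 0.19), Sparc, a collagen-binding protein, had 0.29 (SE 0.17), and Postn, the most abundant per kb at 5542, had 0.22 (SE 0.19).

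Of 16 basement membrane partners, 1 was called lower (6.25%, against 5.33% of all genes) and 0 higher (4.3%), with a median of 0.15. Lama3, a laminin chain of epithelium, had 5987, 3693, 3011 and 4644 normalized counts in the Penk-/- chimeras and 8780, 6277, 5733 and 5910 in the Penk+/+ chimeras. Only Penk-/- replicate 1 reached into the range of the Penk+/+ libraries. Its log2 fold change was -0.65 (SE 0.21, exact permutation p = 0.0857, adjusted p = 0.406 with limma), and -0.54 without both libraries rich in Pbsn. Nid2, a linker of laminin and type IV collagen, had 0.36 (SE 0.17), and Lamb3, a laminin chain and the most abundant of the list, had -0.14 (SE 0.14). Of 12 genes of TGF-beta signalling, a main inducer of collagen genes, 2 were called lower and 0 higher (5.33% and 4.3% of all genes), with a median of 0.14. They were the signal transducers Smad2 at -0.24 (SE 0.09, adjusted p = 0.469 with limma) and Smad3 at -0.20 (SE 0.09, adjusted p = 0.501 with limma), which had -0.13 without both libraries rich in Pbsn. Crtap, Tmem38b, Mmp14, Itga10 and Smad3 were no longer called without both, while Timp1, Timp4, Lama3, Smad2 and Erbb3 were. In that setting limma called 1 of 21 folding genes, 1 of 10 receptors and 1 of 12 epithelium markers, against 9.1% of all genes. None of these was called with all libraries. Ccn2, a target of TGF-beta signalling, had 0.57 (SE 0.30). Per kb of canonical transcript Smad2 was the most abundant of the list at 1966 normalized counts, but per kb of all exons together Tgfbr2, a receptor chain, was above it, at 631 against 287. Tgfbr2 had a log2 fold change of -0.04 (SE 0.09). Without both libraries rich in Pbsn, the medians of the lists of genes that act on or with collagen were 0.027 for folding, 0.079 for cleavage and crosslinking, 0.0029 for degradation, 0.098 for receptors, 0.13 for fibril partners, 0.049 for basement membrane partners and 0.048 for TGF-beta signalling.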

How the data were processed

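Colon RNA of 4 Penk-/- and 4 Penk+/+ chimeras was sequenced, 1 library per mouse. The authors prepared stranded poly-A libraries and aligned and quantified the reads with STAR 2.7.8a on GRCm39, and they used DESeq2 1.30.0. The table the authors deposited holds a signal, normalized counts: each count was divided by the size factor of its library, and no replicates were pooled. In each library 100% of values were whole multiples of 1 step (tolerance 0.01), which gave back 33.1 M to 50.7 M reads per library (median 38.5 M).

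The test between genotypes used limma 3.58.1 (R 4.3.3) on log2(normalized count + 1), with trend and without covariates, over the 19127 genes with a mean of at least 10, two-sided, with Benjamini-Hochberg adjustment. Fold changes on this scale understate those of low genes. The p-values measure the spread between mice. edgeR 4.0.16 and DESeq2 1.42.0 were run on the recovered reads. Exact permutation tests of 4 against 4 cannot go below 0.0286. Correlations were computed for 10 pairs on log2 values, adjusted over the 10. The limma fit was tested on counts simulated from the means and dispersions of these data. At an adjusted p under 0.05 it recovered 60.2% of log2 changes of 1 and 89.5% of those of 2. There were 4 false calls. Smaller changes were not simulated, so the absence of adjusted calls does not exclude them.

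Genes were matched to GENCODE M39 on GRCm39 (25776 of 26008), and lengths are those of canonical transcripts. This length was preferred to that of all exons together after the levels were seen, which replaced Col16a1 by Col6a3 among the named genes, and both are given. Named were the 3 most abundant collagens of each class per kb, those with an unadjusted p under 0.05, those with the 3 highest and 3 lowest fold changes, and in each pathway list the 3 genes with the smallest p and the most abundant one. A gene that this rule names is not reported here. The members, marker lists and pathway lists were chosen with earlier results of these data known. Alternatives were other pseudocounts, filters, scalings, tests, covariates, the replicate number as a block and each library left out.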

Additional observations from a re-analysis of the deposited data

Results flagged for a closer look

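In 8 of 78 groups of 4 libraries (39 collagens in both genotypes), the lowest or highest library was far from the other 3. The gap was above Dixon's 95% critical value for the group's range, where chance gives about 1 in 20 independent groups, or 3.9. Collagens moved together across libraries, so the groups are not independent and 8 cannot be read as an excess. Col4a6 was highest in Penk-/- replicate 3 (gap 0.900 of the range, 8163 normalized counts) and in Penk+/+ replicate 4 (0.898, 8203 counts), Col4a4 in Penk-/- replicate 3 (0.885, 125 counts) and Col17a1 in Penk+/+ replicate 4 (0.973, 73.7 counts). These are the libraries rich in Pbsn. Penk-/- replicate 1 was lowest for Col14a1 (0.890, 1383 counts against 2125 to 2216), Col1a2 (0.885, 5920 counts against 8958 to 9354) and Col5a2 (0.856, 3107 counts against 4395 to 4612). Col6a4 was highest in Penk+/+ replicate 2 (0.881, 373 counts against 198 to 219). No cause was tested.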

How the results depend on the processing

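Over all genes, adjusted calls numbered 0 with limma and 205 with DESeq2, and 1 each with quantile normalization, the fibroblast covariate, the covariate of smooth muscle minus epithelium, and the replicate block. Leaving out 1 library gave 0 to 6, with 6 without Penk-/- replicate 1. No collagen had an adjusted p under 0.05 in any of the 20 alternatives. Collagens with an unadjusted p under 0.05 numbered 3, 5 with no filter on low values (Col2a1 and Col10a1, with few reads, added, for 11.4% of the collagens against 8.3% of all genes) and 1 to 5 when 1 library was left out, against 7.2% to 11.6% of all genes: 1 without Penk-/- replicate 2, Penk-/- replicate 4 or Penk+/+ replicate 1, and 5 (12.8%, against 9.1% of all genes) without Penk+/+ replicate 3. Collagens whose groups did not overlap numbered 0, 2 with no filter (4.5%, against 5.0% of all genes), 2 without both libraries rich in Pbsn (5.1%, against 15.3%), and 0 to 4 when 1 library was left out (7.8% to 12.0% of all genes), with 4 (10.3%, against 12.0%) without Penk-/- replicate 1. The median log2 fold change without 1 library lay between 0.08 (without Penk+/+ replicate 1) and 0.37 (without Penk-/- replicate 1) for fibrillar collagens, between -0.04 (without Penk-/- replicate 3) and 0.29 (without Penk-/- replicate 1) for type IV collagens, and between 0.03 (without Penk+/+ replicate 1) and 0.28 (without Penk+/+ replicate 3) for other collagens.

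Whether the replicate numbers pair the mice was not given in the sources used here. The deviations of same-numbered libraries correlated at 0.15, -0.04, -0.32 and -0.16, which cannot decide it. With the replicate block, 14 of 39 collagens (35.9%) and 15.4% of all genes had an unadjusted p under 0.05. Of the 10 pairs, 8 correlations passed an adjusted p under 0.05, and 8 or 9 did when 1 library was left out, an alternative chosen after seeing the data.

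Among the named collagens 17 of 299 alternative values changed sign, and the cause was not tested. With the fibroblast covariate Col4a1, Col4a2, Col6a1 and Col6a3 had log2 fold changes of -0.057, -0.042, -0.0086 and -0.060. Col16a1 had 0.0043 with quantile normalization and -0.069 to 0.045 when 1 library was left out (above 0 without Penk-/- replicate 1 or Penk+/+ replicate 3). Col17a1 had 0.030 with DESeq2, 0.060 with edgeR, and -0.76 (without Penk-/- replicate 3) to 0.34 (without Penk+/+ replicate 4), and was also above 0 without Penk-/- replicate 1 or 2. Col4a6 had 0.0014 with edgeR, and -0.89 (without Penk-/- replicate 3) to 0.74 (without Penk+/+ replicate 4), and was also above 0 without Penk-/- replicate 1, 2 or 4. Depth limits Col2a1 and Col10a1, which had at most 6.63 normalized counts in a library.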
